A study of Mus musculus with 57 samples.

Results

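Glutamate and GABA are the main excitatory and inhibitory transmitters of the brain, and the genes described here code for subunits of their receptors. They are 36 autosomal genes taken by name from 8 receptor classes, out of 24963 autosomal genes of the curated RefSeq set on mm10, and they are not every member of their families. It holds 3 AMPA, 7 NMDA, 5 kainate and 1 delta subunit gene, 7 genes for metabotropic glutamate receptors, 9 GABA-A and 2 GABA-A rho subunit genes, and the 2 GABA-B genes.

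AMPA, NMDA and kainate receptors are ion channels built from several subunits and carry excitatory transmission, while metabotropic glutamate receptors act through G proteins. GABA-A receptors are chloride channels, also built from several subunits, and GABA-B receptors are G protein-coupled pairs. At active promoters histone H3 usually carries H3K4me3 and H3K27ac, and H3K27me3 is laid down by Polycomb complexes at genes that are kept silent. A promoter that carries H3K4me3 and H3K27me3 together is called bivalent.

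Cortex and gastrocnemius, a muscle of the calf, were taken from PSAPP mice aged 13 months, and the 3 marks were profiled by chromatin immunoprecipitation and sequencing. PSAPP mice carry a mutant human presenilin 1 and a chimeric mouse/human mutant APP (Mo/HuAPP695swe) and form amyloid plaques. Mice of both sexes were singly housed on a fixed daily food allowance from 6 months on. Every library comes from a transgenic mouse, so the comparison is between tissues of one strain and has no non-transgenic control. For each mark there were 9 cortex and 10 gastrocnemius libraries, 57 in all, from 10 mice, of which 9 gave both tissues. The sex of each mouse is not among the labels and was not used.

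The values are reads in the peaks that were called in each library. A promoter is the stretch within 1 kb of the transcription start site (TSS). Its value is given as RPM, reads per M (mega) of reads in that library's autosomal peaks. Each peak's reads were shared evenly over its length, and a window took the share of the length it overlapped. A wide peak thus gives its mean density, which may differ from the reads at the promoter itself. The gene body runs from 1 kb downstream of the TSS to the gene end, and its value is given in RPM per kb. A library without a peak in a window counts as 0 there, which means that no peak was called, not that the mark was absent. Tissues were compared by edgeR's quasi-likelihood test over all autosomal genes, and a gene was called at a Benjamini-Hochberg FDR under 0.1. Log2 differences are cortex minus gastrocnemius, with their standard error (SE).

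Libraries held 9.03 to 18.6 M reads in peaks for H3K4me3, 3.90 to 27 M for H3K27ac and 2.99 to 18.2 M for H3K27me3. The library with 18.2 M, gastrocnemius replicate 5 of H3K27me3, stood apart, with 484 Mb of the genome in peaks, and the calls named below as resting on it are given without it. All 6 neuron markers had an H3K4me3 promoter peak in every cortex library, with a summed level of 159 to 183 RPM against 3.71 to 10.2 RPM in the gastrocnemius, where Snap25, Map2, Camk2a and Neurod6 had none. All 8 skeletal muscle markers had one in every gastrocnemius library, with 136 to 182 RPM against 25.2 to 41.7 RPM in the cortex, where Ckm, Myh1, Myh4, Tnnt3 and Tnni2 had none. The 3 markers of Schwann cells, which wrap motor axons, summed to 0 to 26.5 RPM (median 6.14) in the gastrocnemius and to 14.6 to 22.3 RPM (median 18.3) in the cortex, and their part in the results was not tested. The cortex and the muscle are mixtures of cells, so fewer cells with a mark and less of the mark per cell cannot be told apart, and 2 marks at one promoter may sit in different cells.

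H3K4me3 stood at the promoters of most receptor genes in the cortex and of fewer in the muscle, with 32 to 33 members marked per cortex library and 10 to 21 per gastrocnemius library. In the cortex 32 of the 36 genes had a promoter peak in every library and 3 had none in any, whereas in the gastrocnemius 9 had one in every library and 15 had none. Of all autosomal genes 58.5% and 56.9% had one in every library of the cortex and of the gastrocnemius, and 36.9% and 36.5% had none. The median promoter level of the 36 genes was 26.7 RPM in the cortex and 0.393 RPM in the gastrocnemius, against 15.9 and 11.7 RPM over all autosomal genes. The level was called higher in the cortex for 30 genes and in the gastrocnemius for 0, while 37.7% and 10.9% of all autosomal genes were called in these directions. The fitted median log2 difference was 3.89 for the 36 receptor genes and 0.33 for all autosomal genes that had reads in some library. It was 2.6 and 0.01 when bases without a peak were given the lowest read density of the library. Every gene then has reads, so the 0.33 and the 0.01 cover different sets of genes. Beside the 0 calls in muscle, 0 members had an unadjusted edgeR p under 0.05 in that direction, and DESeq2 also called 0. Without the lowest 25% of peak scores Grin3b was called in that direction (log2 difference −7.14, edgeR FDR = 0.0119).

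H3K27ac was at most promoters of the list in the cortex and at fewer in muscle. In the cortex 31 genes had a promoter peak in every library and 3 in none, and in the gastrocnemius 7 had one in every library and 27 in none. Over all genes the shares with a peak in every library were 59.1% and 57.4%, and with none 29.2% and 32.3%. The median level was 9.24 RPM in the cortex and 0 in the gastrocnemius, against 6.63 and 5.05 RPM over all genes. The level was called higher in the cortex for 31 genes, where 35.1% of all genes were, and higher in the gastrocnemius for Grin3b and Gabrr2, where 9.63% of all genes were. With the animal as a block only Grin3b kept its call in the muscle direction.

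H3K27me3 lay the other way for many members. The median promoter level was 2.01 RPM in the cortex and 7.45 RPM in the gastrocnemius, and 0 in both tissues over all genes. A peak was present in every library at 14 genes in the cortex and at 19 in the gastrocnemius, where 13.7% and 12.9% of all genes had one, and 11 and 3 genes had none. The level was called higher in the gastrocnemius for 14 members and in the cortex for Grin3b only, while 11.2% and 8.41% of all genes were called in these directions. The animal block left 12 and 0 calls. The other 21 members were not called, among them 8 with a peak in every library of both tissues (Grin2a, Grin2c, Grin2d, Grin3a, Grik3, Grm4, Grm6 and Gabra5).

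These splits depend in part on the scaling, on the test and on how peak reads are shared into the window. DESeq2 changes the scaling and the test, whereas TMM factors change the scaling alone. Of all H3K4me3 promoter calls 77.5% were higher in the cortex, but 53.0% with TMM factors and 49.6% with DESeq2, and for H3K27ac the shares were 78.5%, 56.1% and 51.1%. With each overlapping peak counted whole, and the scaling and test kept, the H3K4me3 and H3K27ac shares were 49.3% and 43.3%. A window of 2.5 kb gave 63.2% and 69.0%. For H3K4me3 in gene bodies the share was 37.7%, 47.0% with TMM factors and 48.8% with DESeq2, and for H3K27me3 at promoters 42.9%, 43.9% and 59.2%. With TMM factors the median log2 difference of all genes moved from 0.33 to 0.04 for H3K4me3 promoters, from 0.31 to 0.04 for H3K27ac promoters and from −0.38 to −0.18 for H3K4me3 gene bodies. The receptor genes whose promoters were called higher in the cortex and in the gastrocnemius then numbered 29 and 0 for H3K4me3 and 28 and 2 for H3K27ac, and 3 and 17 for H3K27me3. DESeq2 called 28 and 0, 29 and 2, and 4 and 15.

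**Figure D1:**
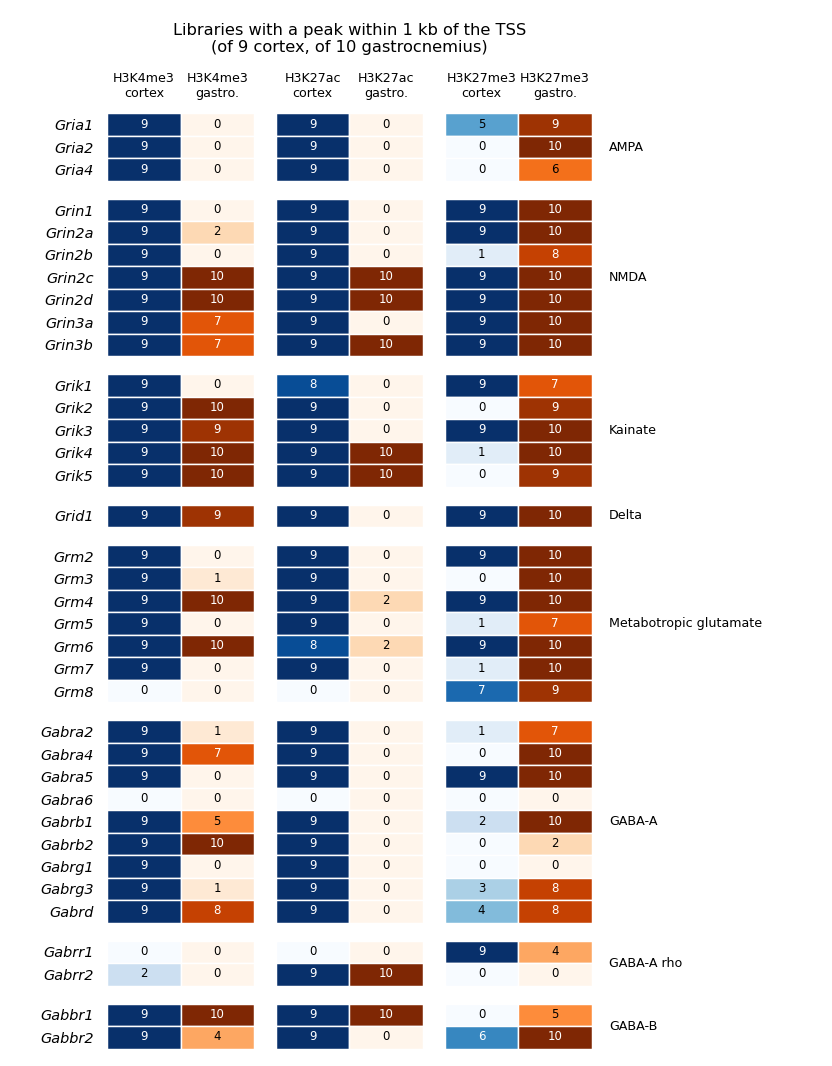
Number of libraries with a called peak within 1 kb of the TSS, for the 36 receptor genes (lines) grouped by class, by mark and tissue (columns, 9 cortex and 10 gastrocnemius libraries); darker cells hold more libraries. In the cortex columns H3K4me3 is in all 9 libraries at 32 genes and H3K27ac at 31, and Grm8, Gabra6 and Gabrr1 have neither, while the H3K27me3 column of the gastrocnemius is filled at 19 genes.

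The members with the most contrasting promoters are shown with their sequence, so that the stretch before the start can be read beside the marks. Sequences are the 250 bases upstream of a RefSeq start on GRCm38.p6, 5′ to 3′ on the strand of the gene, with each CpG dinucleotide in capitals. Entries were found for 27 of the 36 genes. Gria1, Grin2a, Grin2b, Grin3a, Grik1, Grid1, Grm4, Grm5 and Gabrd had no entry. Gria2 and Grm3 had the largest tissue difference in H3K27me3 towards the gastrocnemius, and Grin3b was the member called towards the cortex. Grm8, Gabra6 and Gabrr1 had no H3K4me3 at the start used here, and Grm8 is also shown at its most upstream start. The Gria2 entry begins 142 bases upstream of the start used for the counts.
Gria2, chr3:80802836-80803085, minus strand: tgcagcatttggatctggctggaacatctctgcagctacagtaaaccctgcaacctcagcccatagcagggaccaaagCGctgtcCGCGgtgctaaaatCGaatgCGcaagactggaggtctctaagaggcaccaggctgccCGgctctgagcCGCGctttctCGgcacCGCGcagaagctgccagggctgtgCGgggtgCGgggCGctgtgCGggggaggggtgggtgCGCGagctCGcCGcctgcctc
Grm3, chr5:9725353-9725602, minus strand: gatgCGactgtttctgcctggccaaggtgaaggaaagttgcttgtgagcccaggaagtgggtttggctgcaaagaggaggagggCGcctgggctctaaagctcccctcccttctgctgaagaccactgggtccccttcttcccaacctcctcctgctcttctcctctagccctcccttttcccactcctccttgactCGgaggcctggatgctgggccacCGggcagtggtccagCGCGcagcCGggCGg
Grin3b, chr10:79970474-79970723, plus strand: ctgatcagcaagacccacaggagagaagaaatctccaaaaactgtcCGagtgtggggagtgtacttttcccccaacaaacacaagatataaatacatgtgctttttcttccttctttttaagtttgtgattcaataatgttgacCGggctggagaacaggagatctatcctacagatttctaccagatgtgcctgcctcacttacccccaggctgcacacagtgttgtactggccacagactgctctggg
Gabra6, chr11:42321073-42321322, minus strand: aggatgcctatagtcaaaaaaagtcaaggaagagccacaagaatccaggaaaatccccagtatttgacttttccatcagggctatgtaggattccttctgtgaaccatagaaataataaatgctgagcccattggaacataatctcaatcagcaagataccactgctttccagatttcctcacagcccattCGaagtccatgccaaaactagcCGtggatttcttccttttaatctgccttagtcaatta
Gabrr1, chr4:33132306-33132555, plus strand: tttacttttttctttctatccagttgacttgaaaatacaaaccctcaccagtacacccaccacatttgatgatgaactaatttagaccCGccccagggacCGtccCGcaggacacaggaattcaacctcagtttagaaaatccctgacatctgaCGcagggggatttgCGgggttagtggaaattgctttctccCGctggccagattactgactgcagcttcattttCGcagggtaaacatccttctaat
Grm8, chr6:28126427-28126676, minus strand: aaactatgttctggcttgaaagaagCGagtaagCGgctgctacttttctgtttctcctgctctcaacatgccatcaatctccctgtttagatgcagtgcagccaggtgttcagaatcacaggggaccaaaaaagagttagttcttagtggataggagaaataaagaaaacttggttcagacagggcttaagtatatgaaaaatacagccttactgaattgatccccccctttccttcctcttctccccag
Grm8 upstream start, chr6:28135147-28135396, minus strand: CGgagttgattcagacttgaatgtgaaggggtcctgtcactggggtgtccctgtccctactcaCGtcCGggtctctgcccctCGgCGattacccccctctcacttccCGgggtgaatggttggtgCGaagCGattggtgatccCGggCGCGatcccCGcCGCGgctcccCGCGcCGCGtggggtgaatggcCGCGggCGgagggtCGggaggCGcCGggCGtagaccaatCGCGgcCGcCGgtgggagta

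The stretch of Gria2 held 19 CpG dinucleotides and that of Grm3 held 8, while Grin3b, Gabra6 and the used Grm8 start held 2 each and Gabrr1 held 7. Over 31387 autosomal entries the number ran from 0 to 56 with a median of 6. The 23 matched members with H3K4me3 in every cortex library had between 1 and 42 (median 12), and Grm8, Gabra6, Gabrr1 and Gabrr2, which did not, had between 1 and 7 (median 2). The groups overlapped. Gabrg1, with 1 CpG, carried H3K4me3 in 9 of 9 cortex libraries. GGGCGG, the GC box bound by SP1, occurred on either strand in 13 of the 27 members and in 33.0% of all entries. TATAAA was found in Grin3b only, at 12.4% of all entries, TCAGCACC, the left part of the RE1 element of neuronal genes, in Grm2 only, at 1.33%, and TGACGTCA, the cAMP response element, in no member, at 1.58%. These matches say only which letters the stretch holds.

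**Figure D2:**
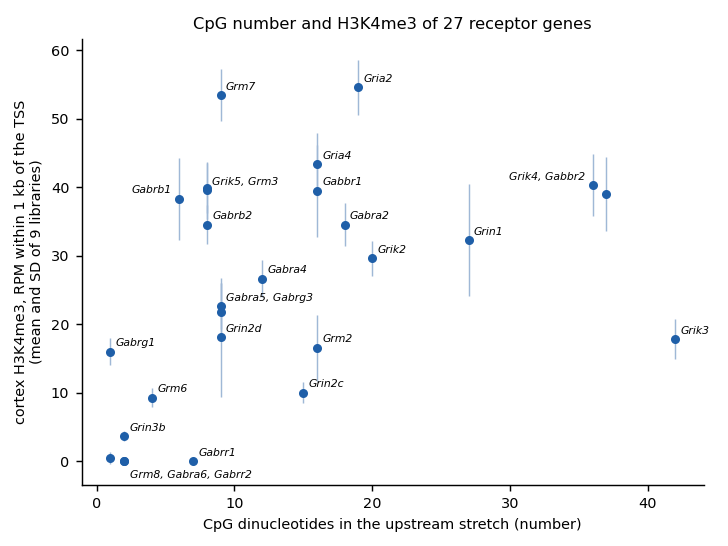
Number of CpG dinucleotides in the 250 bases upstream of the start (horizontal) against cortex H3K4me3 within 1 kb of the TSS in RPM (vertical, mean and SD of 9 libraries), for the 27 receptor genes with a sequence entry. Gria2 (19 CpG) and Grm7 (9 CpG) sit highest at 54.6 and 53.5 RPM, and Gabrg1 carries 16.0 RPM with 1 CpG.

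The AMPA receptor genes, which code for the channels of fast excitation, had cortex H3K4me3 and H3K27ac and no muscle peak of either mark. Gria2, whose subunit keeps the channel from passing calcium, had the highest cortex H3K4me3 of the 36 genes, 46.8 to 59.7 RPM (median 55.1) against no peak in 10 gastrocnemius libraries. Its H3K27ac was 12.3 to 17.9 RPM (median 15.6), again with no muscle peak. H3K27me3 at Gria2 was in 0 of 9 cortex libraries and in 10 of 10 gastrocnemius libraries, at 4.33 to 12.8 RPM (median 8.76). Gria2 was thus separated completely between the tissues in all 3 marks. Gria4 followed with H3K4me3 of 38.1 to 49.2 RPM (median 43.7) and H3K27ac of 11.4 to 15.5 RPM (median 13.9) in the cortex. Its H3K27me3 was called in 6 of 10 gastrocnemius libraries only, at 0 to 8.34 RPM (median 2.98, edgeR FDR = 0.0116, and 0.339 with the animal block). Its start lies 70 bp from that of Gm46100 on the other strand, so the 2 share a window. Gria1 had the lowest H3K4me3 of the class, 19.6 to 34.2 RPM (median 27.6). H3K27me3 at its promoter was in 5 of 9 cortex and 9 of 10 gastrocnemius libraries and was not called (edgeR FDR = 0.786).

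NMDA receptor genes ranged from no active mark at the muscle promoter to both active marks in every library of both tissues. Grin1, the subunit that every NMDA receptor contains, had H3K4me3 of 18.7 to 43.1 RPM (median 33.0) and H3K27ac of 7.29 to 11.4 RPM (median 9.26) in the cortex and no peak of either in muscle. H3K27me3 covered its promoter in all 19 libraries, at 5.35 to 8.6 RPM (median 6.52) in the cortex and 5.94 to 13.2 RPM (median 9.88) in the gastrocnemius, a 1.55-fold higher mean (edgeR FDR = 0.0144) with overlapping values. Grin2a and Grin2b, the GluN2 subunits of most forebrain receptors, had mean cortex H3K4me3 of 29.3 ± 6.38 and 27.7 ± 4.28 RPM (SD, n = 9), with a muscle peak in 2 and 0 of 10 libraries. Grin2b lacked H3K27me3 in 8 of 9 cortex libraries and had it in 8 of 10 of the gastrocnemius (edgeR FDR = 0.265, and 0.088 with the animal block).

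The other NMDA genes differed less. Grin2c, a subunit best known from the cerebellum, had H3K4me3 2.20-fold higher in the cortex, at 8.05 to 13.3 RPM (median 9.60) against 3.30 to 5.20 RPM (median 4.67), without overlap. Its H3K27ac was 1.84-fold higher (edgeR FDR = 0.00048) with overlapping values, and its H3K27me3 promoter level was not called (edgeR FDR = 0.161, and 0.0345 with TMM factors). Grin2d H3K4me3 was 18.1 ± 8.65 RPM in the cortex (SD, n = 9) and 14.1 ± 3.18 RPM in the gastrocnemius (n = 10) and was not called (edgeR FDR = 0.21). Its H3K27ac was 1.27-fold higher in the cortex (edgeR FDR = 0.051), a call lost with TMM factors (0.56). Grin3a carried H3K4me3 in 7 of 10 muscle libraries but no H3K27ac there. These genes therefore had marks of both kinds in both tissues or in parts of the muscle libraries.

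Grin3b, which codes for the GluN3B subunit, was called against the direction of most members in H3K27ac and H3K27me3. H3K27ac at its promoter was 3.90 to 6.08 RPM (median 5.06) in the cortex and 4.99 to 11.2 RPM (median 8.06) in the gastrocnemius. The muscle mean was 1.59-fold higher (log2 difference −0.66 ± 0.13 SE, edgeR FDR = 0.000267), although the ranges overlapped. H3K4me3 was present in 9 of 9 cortex libraries at 2.90 to 5.01 RPM (median 3.43) and in 7 of 10 muscle libraries at 0 to 5.43 RPM (median 2.80), and was not called (edgeR FDR = 0.801). It was called higher in muscle without the lowest 25% of scores (edgeR FDR = 0.0119) and higher in the cortex with bases without a peak at the lowest density. H3K27me3 was in every library and higher in the cortex, 8.50 to 12.9 RPM (median 11.1) against 5.08 to 13.1 RPM (median 7.89, edgeR FDR = 0.0393, and 0.164 with the animal block). The H3K27ac peaks over this promoter were 16.0 to 234.6 kb long in the gastrocnemius (median 51.5 kb) and 4.2 to 21.0 kb in the cortex (median 9.6 kb). The muscle lengths exceeded the 6.467 kb of Grin3b in every library. The nearest start of another gene, Wdr18, lies 10572 bp away.

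All 5 kainate receptor genes had H3K4me3 in every cortex library and were called higher there, and 3 of them also had it in every muscle library. Of all genes 58.5% had it in every cortex library, 37.7% were called higher there and 56.9% had it in every muscle library. Grik4, a high-affinity kainate subunit, had the highest cortex level of the class, 34.3 to 47.3 RPM (median 38.6) against 10.2 to 23.1 RPM (median 17.9) in muscle, a 2.33-fold difference without overlap. Its H3K27ac was 5.90 to 13.0 RPM (median 7.93) and 2.44 to 4.75 RPM (median 4.41), 2.18-fold higher in the cortex. H3K27me3 at Grik4 was in 1 of 9 cortex libraries, at 0.767 RPM, and in every muscle library at 5.82 to 13.0 RPM (median 9.54, edgeR FDR = 1.13e-06). In muscle the promoter thus carried all 3 marks. Grik5 had H3K4me3 1.73-fold and H3K27ac 1.33-fold higher in the cortex, the latter not called with TMM factors (edgeR FDR = 0.236), and H3K27me3 in 9 of 10 muscle libraries only.

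Grik2 had H3K4me3 6.80-fold higher in the cortex, at 29.6 ± 2.51 RPM (SD, n = 9) against 4.35 ± 0.915 RPM (n = 10). Its H3K27me3 was absent from the cortex peaks and reached 0 to 9.89 RPM (median 7.66) in muscle, one of the largest differences of this mark (edgeR FDR = 9.2e-05). Grik3 had the lowest cortex H3K4me3 of the class, 14.7 to 22.9 RPM (median 16.6), against 0 to 5.78 RPM (median 4.83). Its H3K27me3 did not differ by call, with medians of 8.91 RPM in both tissues (edgeR FDR = 1). Grik1 had H3K4me3 in the cortex only, and H3K27me3 in 9 of 9 cortex and 7 of 10 muscle libraries. Grid1, the delta subunit, which binds synaptic organisers rather than glutamate, had H3K4me3 of 33.3 to 43.3 RPM (median 39.1) against 0 to 7.98 RPM (median 5.85). Its H3K27ac was 8.08 to 14.5 RPM (median 10.8) with no muscle peak, and its H3K27me3 mean was 2.5-fold higher in muscle, 2.47 to 6.25 RPM (median 4.03) against 5.28 to 14.8 RPM (median 10.3, edgeR FDR = 0.000358).

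**Figure D3:**
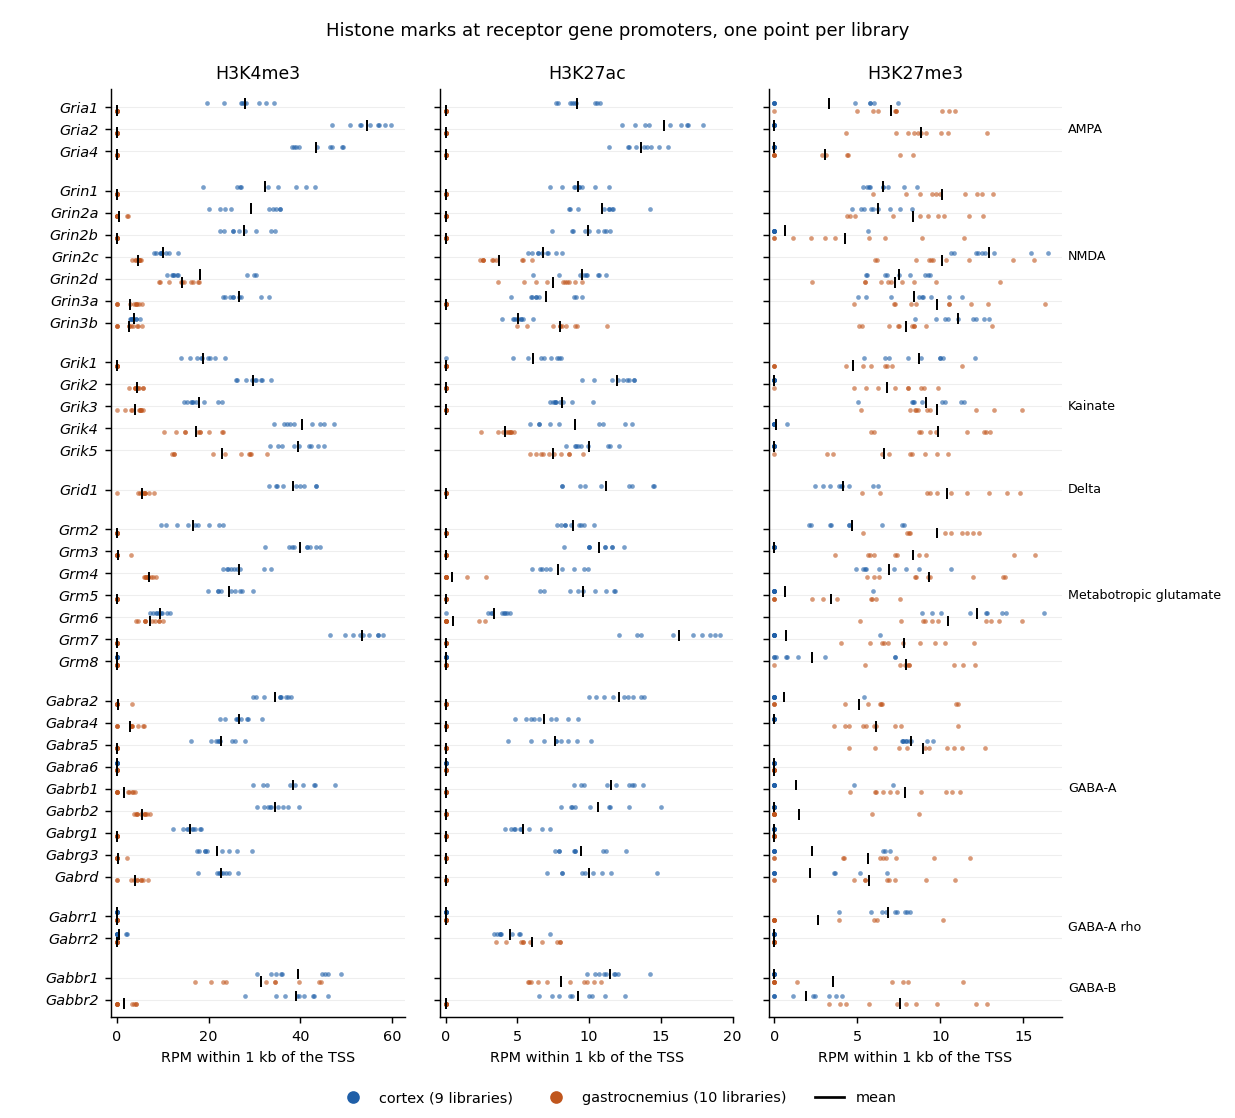
Promoter level of each mark in RPM within 1 kb of the TSS (horizontal) for the 36 receptor genes grouped by class (vertical), with 1 point per library (9 cortex, blue; 10 gastrocnemius, orange) and a black bar for the mean. Cortex points lie to the right for H3K4me3 and H3K27ac at most genes, Grin3b and Gabrr2 H3K27ac excepted, and at Gria2, Grm3, Gabra4 and Grik4 the H3K27me3 points of the tissues do not overlap.

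Of the 7 metabotropic glutamate receptor genes, 6 had H3K4me3 and 6 had H3K27ac called higher in the cortex. Of all genes 37.7% and 35.1% were called so. Grm7, a presynaptic receptor, had H3K4me3 of 46.4 to 58.0 RPM (median 53.7) and the highest H3K27ac of the list, 12.1 to 19.1 RPM (median 17.2), with no muscle peak of either. H3K27me3 at Grm7 was in 1 of 9 cortex and 10 of 10 muscle libraries (edgeR FDR = 0.0467). Grm3, which is also found on astrocytes, had H3K4me3 of 32.2 to 44.2 RPM (median 41.3), and H3K27me3 in muscle only, at 3.66 to 15.7 RPM (median 7.34, edgeR FDR = 8.11e-07). Grm2, the partner of Grm3 in the same receptor group, had all 3 marks in every cortex library, with H3K27me3 2.09-fold higher in muscle (edgeR FDR = 0.0109). Grm5, a postsynaptic receptor, had cortex H3K4me3 of 24.5 ± 3.09 RPM (SD, n = 9) and no muscle peak of an active mark.

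Grm4 and Grm6 kept H3K4me3 and H3K27me3 in all 19 libraries. Grm4 H3K4me3 was 3.87-fold higher in the cortex. Grm6, the receptor by which retinal ON bipolar cells sense glutamate, had 9.30 ± 1.39 RPM in the cortex (SD, n = 9) and 7.12 ± 2.0 RPM in muscle (n = 10), a 1.31-fold difference (edgeR FDR = 0.0611) that was not called with TMM factors (1) or with the animal block (0.204). H3K27ac at Grm6 was in 8 of 9 cortex and 2 of 10 muscle libraries (edgeR FDR = 0.0843, and 0.151 with TMM factors).

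The values of Grm8 and Grm4 depend on the start that is used. At the Grm4 starts 9864 and 16863 bp from the one counted no library had H3K4me3. For Grm8, at the start used for the counts no library of either tissue had H3K4me3 or H3K27ac, while H3K27me3 was in 7 of 9 cortex libraries, at 0 to 7.28 RPM (median 0.772), and in 9 of 10 muscle libraries, at 0 to 12.1 RPM (median 8.04). Another curated start lies 8720 bp upstream, with 29 CpG dinucleotides in its stretch above, as many as or more than 93.9% of all entries. There H3K4me3 was present in every library, at 32.7 to 41.0 RPM (median 36.3) in the cortex and 10.4 to 18.0 RPM (median 13.0) in muscle. H3K27ac at that start was in 9 of 9 cortex libraries, at 7.52 to 9.65 RPM (median 8.82), and in 3 of 10 muscle libraries, and H3K27me3 was in 8 of 9 and 10 of 10. These values were looked up after the empty window had been seen, and they do not enter the counts above.

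The GABA-A receptor genes code for the chloride channels of fast inhibition. H3K4me3 and H3K27ac were called higher in the cortex for 8 of 9 members each, and for 37.7% and 35.1% of all genes. Gabrb1, a beta subunit, had the highest cortex H3K4me3 of the class, 29.6 to 47.6 RPM (median 38.7) against 0 to 3.84 RPM (median 1.24), with H3K27ac of 8.97 to 13.8 RPM (median 11.9) in the cortex only. Its H3K27me3 was in 2 of 9 cortex and 10 of 10 muscle libraries and was not called (edgeR FDR = 0.111, 0.098 with TMM factors and 0.0328 with the animal block). Gabrb2, a beta subunit of the commonest receptors, had H3K4me3 6.43-fold higher in the cortex, and H3K27me3 in 2 muscle libraries only (edgeR FDR = 0.0733, and 0.912 with the animal block). Gabra4, an alpha subunit found outside synapses, had H3K27me3 in muscle only, at 3.59 to 11 RPM (median 5.78, edgeR FDR = 2.51e-06). A second start of Gabrb1 lies within 387 bp of the Gabra4 start on the other strand, but Gabrb1 was counted at another start, 41624 bp from Gabra4, so the promoter windows do not overlap.

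Gabra2 and Gabra5, alpha subunits, had cortex H3K4me3 of 34.6 ± 3.09 and 22.7 ± 3.39 RPM (SD, n = 9), with a muscle peak in 1 and 0 of 10 libraries. At Gabra5 H3K27me3 was in all 19 libraries and not called (edgeR FDR = 1), whereas at Gabra2 it was in 1 of 9 and 7 of 10 (edgeR FDR = 0.187). Gabrd, the delta subunit of tonic inhibition, had 22.7 ± 2.34 RPM of H3K4me3, and H3K27me3 in 4 of 9 cortex and 8 of 10 muscle libraries. Gabrg1 had H3K4me3 of 12.3 to 18.3 RPM (median 16.4) and H3K27ac in every cortex library and no peak of any mark in muscle. Gabrg3 shares its window with Gm9962, whose start is 57 bp away on the other strand. Gabra6, the subunit of cerebellar granule cells, had no peak of any mark in any of the 57 libraries.

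The rho subunit genes, best known from the retina, stood apart from the other GABA-A genes. Gabrr1 had no H3K4me3 or H3K27ac promoter peak in either tissue, and H3K27me3 in 9 of 9 cortex libraries, at 3.92 to 8.18 RPM (median 7.26), and in 4 of 10 muscle libraries, at 0 to 10.2 RPM (median 0, edgeR FDR = 0.61). Gabrr2 had no H3K27me3 promoter peak, and H3K4me3 in 2 of 9 cortex libraries, at 0 to 2.09 RPM (median 0, edgeR FDR = 0.0236), which the animal block did not call (0.791). Its H3K27ac was in all 19 libraries, at 3.38 to 7.26 RPM (median 3.86) in the cortex and 3.49 to 7.98 RPM (median 5.65) in muscle. The muscle mean was 1.33-fold higher (log2 difference −0.44 ± 0.17 SE, edgeR FDR = 0.0529, and 0.128 with the animal block), with overlapping values. In the 6 H3K27ac libraries with a numbered S code in their deposited file name the log2 difference was 0.03.

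Both GABA-B genes, whose products form 1 receptor as a pair, had H3K4me3 and H3K27ac in every cortex library, and they parted in muscle. Gabbr1, which binds GABA, kept both marks there. Its H3K4me3 was 30.5 to 48.9 RPM (median 35.9) in the cortex and 16.9 to 44.6 RPM (median 33.5) in muscle and was not called (edgeR FDR = 0.119), and its H3K27ac was 1.42-fold higher in the cortex (edgeR FDR = 0.00374). Gabbr2, which couples to the G protein, had H3K4me3 of 27.9 to 46.0 RPM (median 39.7) in the cortex and 0 to 4.21 RPM (median 0) in muscle, with no muscle H3K27ac. H3K27me3 at Gabbr2 was in 6 of 9 cortex libraries, at 0 to 4.08 RPM (median 2.3), and in 10 of 10 of muscle, at 3.27 to 12.8 RPM (median 7.66). The call (edgeR FDR = 0.0841) was lost with the animal block (0.395). At Gabbr1 it was in 5 muscle libraries only (edgeR FDR = 0.0227, and 0.276 with the block).

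Read together in each mouse, the marks sorted the promoters into a few combinations. In all 9 cortices Gria2, Gria4, Grik2, Grik5, Grm3, Gabra4, Gabrb2, Gabrg1 and Gabbr1 had H3K4me3 and H3K27ac without H3K27me3, and no member had this in all 10 muscles. Of all autosomal genes 43.3% and 39.9% had it in every cortex and in every muscle. The bivalent pair of H3K4me3 and H3K27me3 was present in all 9 cortices at 13 genes, among them all NMDA genes but Grin2b, and in all 10 muscles at Grin2c, Grin2d, Grik4, Grm4 and Grm6, against 6.95% and 6.69% of all autosomal genes. H3K27me3 without H3K4me3 was found in all 10 muscles at Gria2, Grin1, Grm2, Grm7 and Gabra5, and in all 9 cortices at Gabrr1 only, against 3.98% and 5.2% of all genes. Gabrg1 and Gabra6 had no mark in any muscle, and Gabra6 in any cortex, as did 16.1% and 15.5% of all genes.

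Over gene bodies most members again had more of the active marks in the cortex and more H3K27me3 in muscle. H3K4me3 was called higher in the cortex for 31 of 36 genes and in the gastrocnemius for Grin3b, against 18.3% and 30.2% of 20839 genes with a body of at least 1 kb. H3K27ac was called for 32 and 1 (Grin3b), against 29.9% and 28.6%, and H3K27me3 for 4 and 26, against 13.3% and 14.8%. With the animal block the H3K27me3 calls were 1 and 20. The median share of the body in H3K27ac peaks was 15.9% in the cortex and 0% in muscle, against 19.9% and 23.1% over all genes, so in the cortex it lay below that of all genes. The fitted median log2 differences of H3K4me3, H3K27ac and H3K27me3 were 6.07, 10.59 and −3.22, and 0.12, 0.38 and −0.26 with bases without a peak at the lowest density. The calls moved with this value too, to 17 and 1 for H3K4me3 with 4 cortex calls changing sign, and to 0 and 9 for H3K27me3. The size and many of the calls thus rest on the value given to stretches without a peak.

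H3K27ac spread along whole genes at a few members in the cortex. Gabbr1 was covered over 100% of its body in the cortex and 28.3% in muscle, and Grik5 over 99.0% and 16.7%. Grm2 and Gabrd were covered over 88.7% and 86.8% in the cortex and not at all in muscle, by median. Grin2b had the largest fitted H3K27ac difference in the body, with 1.17 to 1.84 RPM per kb in the cortex (median 1.30) and no peak in muscle. Grin2a followed with 0.574 to 1.13 RPM per kb (median 0.862) and Gria1 with 0.720 to 1.57 RPM per kb (median 1.09), both without a muscle peak. Among members with a peak, Grin2d and Grin2c differed least. Grin2d had 0.614 to 1.18 RPM per kb (median 0.853) against 0.379 to 0.766 RPM per kb (median 0.524), and Grin2c 0.694 to 1.31 RPM per kb (median 1.01) against 0.216 to 1.33 RPM per kb (median 0.465). At Grin3b the muscle was higher, with 2.23 to 5.65 RPM per kb (median 4.12) against 0.145 to 2.53 RPM per kb (median 1.40), 2.94-fold by the means (edgeR FDR = 0.000338).

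H3K4me3 entered the gene bodies only a short way. Median coverage was 1.5% in the cortex and 0% in muscle, against 1.49% and 2.89% over all genes. The largest fitted differences were at Grin2b, with 0.367 to 0.472 RPM per kb (median 0.404), Gria2, with 1.01 to 1.17 RPM per kb (median 1.07), and Gria1, with 0.243 to 0.359 RPM per kb (median 0.268). None of the 3 had a muscle peak. Grm8 and Gabra6 had no H3K4me3 in the body, and Grm6 had 0.0438 to 0.166 RPM per kb (median 0.0546) against 0 to 0.115 RPM per kb (median 0.0517, edgeR FDR = 1). Grin3b had 0 to 0.173 RPM per kb (median 0.0409) in the cortex and 0 to 3.0 RPM per kb (median 0.812) in muscle (edgeR FDR = 0.0135). The calls of Gabrr1 and Gabrr2 towards the cortex rested on 1 and 2 libraries with a peak and were lost with the animal block (edgeR FDR = 0.672 and 0.456).

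H3K27me3 covered a median of 0.427% of the members' bodies in the cortex and 9.23% in muscle, against 0% in both over all genes. Grm2 and Grin2c were the most covered in muscle, with 100% and 97.1%, and were also covered over 73.5% and 100% in the cortex. Other members were covered in muscle and little in the cortex. The covered share of Gria1 was 0.372% in the cortex and 60.9% in muscle, that of Gabbr2 4.57% and 60.2%, and that of Grik4 18.5% and 84.2%. Grin2a, Grin2b and Grid1 were at 34.9% to 37.7% in muscle and under 1% in the cortex. The largest fitted differences were at Grik2, with 0 to 0.0506 RPM per kb in muscle (median 0.0389), Gabra4, with 0.0505 to 0.309 RPM per kb (median 0.166), and Grm3, with 0 to 0.177 RPM per kb (median 0.0325). None of the 3 had a peak in the cortex. The means of Grin1 and Grin2a were 2.51-fold and 21.9-fold higher in muscle (edgeR FDR = 5.76e-06 and 8.13e-13). Gabra6 and Gabrg1 had no H3K27me3 in the body, and Gabra5 had 0.0710 to 0.160 RPM per kb (median 0.0977) against 0.0107 to 0.170 RPM per kb (median 0.0901, edgeR FDR = 1).

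With the animal block the H3K27me3 body calls towards muscle were lost at Gria2, Gria4, Grm3, Gabra4, Gabrb2, Gabrd and Gabbr1 (edgeR FDR = 0.147, 0.328, 0.191, 0.131, 0.783, 0.201 and 0.225), while Gabrg3 gained one (0.0729). Most of these genes had no cortex peak at all, so the level and the calls per library describe them better than the fitted difference.

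H3K27me3 in the body was higher in the cortex for 4 genes. Gabrr1 had 1.40 to 2.80 RPM per kb (median 2.29) in the cortex and 0.419 to 1.26 RPM per kb (median 0.744) in muscle, 2.68-fold by the means and without overlap (edgeR FDR = 3.92e-05). This call was kept with the animal block. Grin2c had 5.30 to 6.83 RPM per kb (median 6.14) against 3.03 to 6.01 RPM per kb (median 4.98, edgeR FDR = 0.0769, and 0.185 with the block). Grin3b had 2.45 to 3.58 RPM per kb (median 2.86) against 0.520 to 3.75 RPM per kb (median 1.67, edgeR FDR = 0.0888, 0.217 with the block and 0.128 without gastrocnemius replicate 5). Gabrr2 had a peak in 1 cortex library, at 0.356 RPM per kb (edgeR FDR = 0.0563, and 1 with the block).

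**Figure D4:**
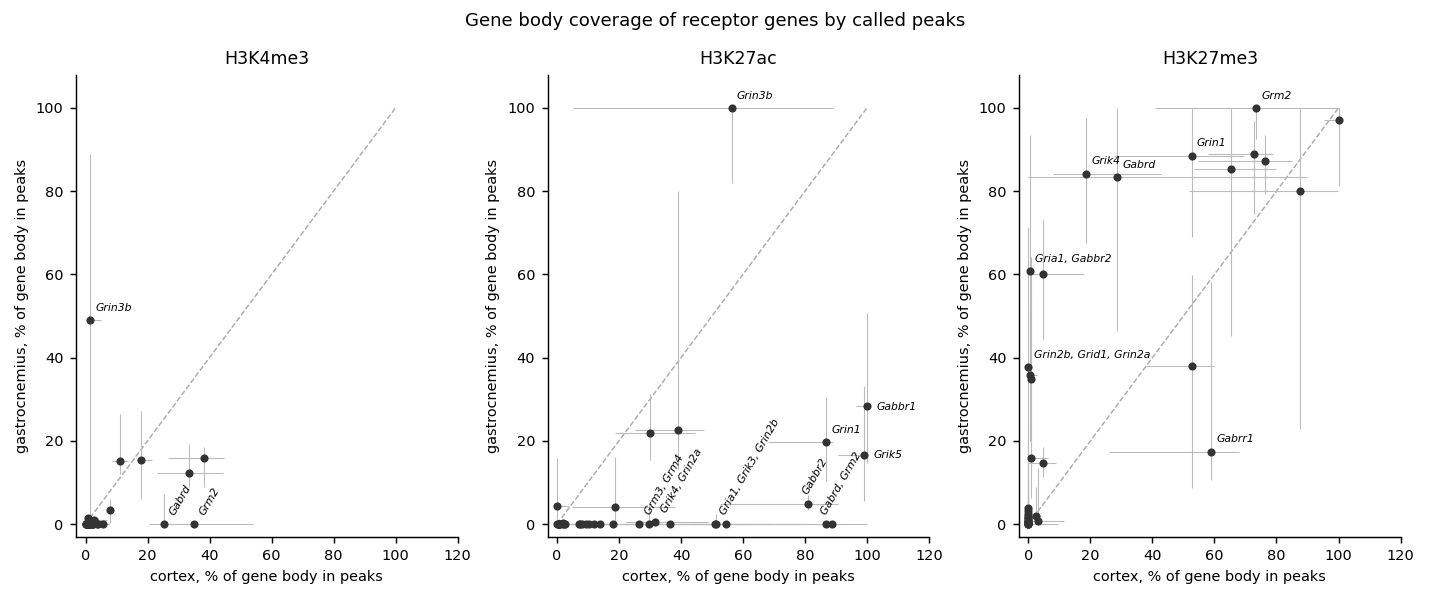
Share of each gene body covered by called peaks, in percent, in the cortex (horizontal) and the gastrocnemius (vertical), 1 point per receptor gene at the median over libraries with lines from the lowest to the highest library; the dashed line marks equal shares. H3K27ac points lie along the cortex axis, up to Gabbr1 at 100% against 28.3%, except for Grin3b at 56.3% against 100%, and H3K27me3 points such as Gria1 (0.372% against 60.9%) lie towards the gastrocnemius.

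Peaks of the active marks over the promoters were wider in the cortex at most members. For H3K4me3 Grin2b had the widest, with a median of 16.4 kb in the cortex, followed by Gabbr1 with 12.8 kb, Grik2 with 12.2 kb and Grik3 with 10.4 kb. In muscle those of Gabbr1 measured 4.4 kb. Grik5, Grin3b and Grm6 had wider H3K4me3 peaks in muscle, with 8.9, 2.3 and 2.2 kb against 6.4, 1.2 and 1.6 kb. For H3K27ac the peaks over Grik5 measured 51.2 kb in the cortex and 17.7 kb in muscle, those over Grm2 39.2 kb and none, and those over Gabbr1 38.2 kb and 4.2 kb. Grin3b, Gabrr2 and Grin2d were wider in muscle, at 51.5, 13.8 and 13.7 kb against 9.6, 4.6 and 12.6 kb. For H3K27me3 the widest were at Grik3, with 29.2 kb in the cortex and 45.6 kb in muscle, and Grik4 and Gabbr2 measured 37.6 and 32.4 kb in muscle. These widths were not tested.

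**Figure D5:**
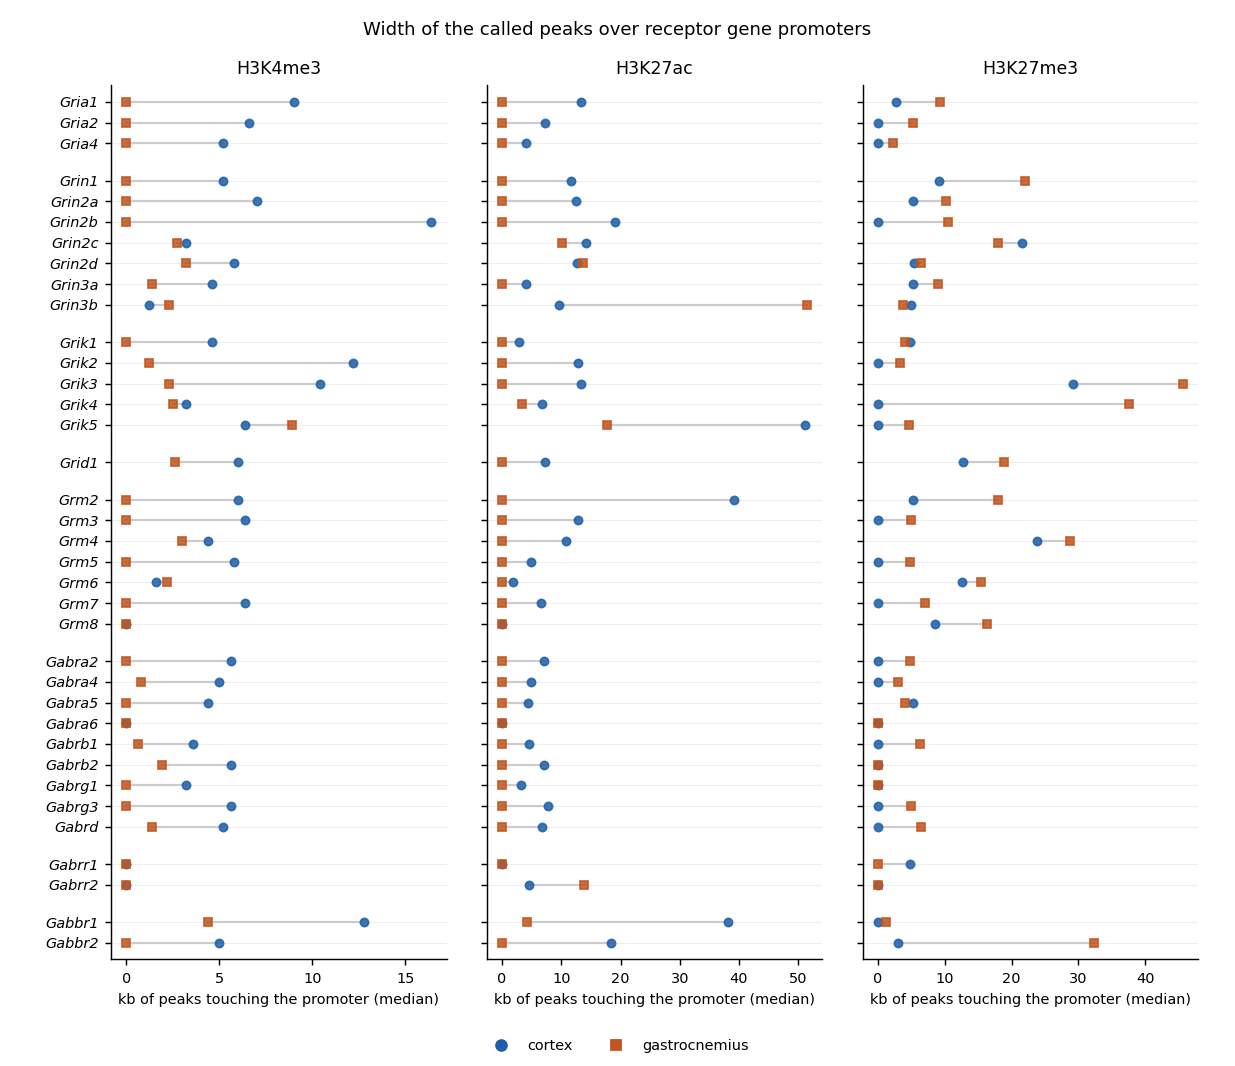
Summed length of the called peaks that touch the promoter, in kb, as the median over libraries (circles, cortex; squares, gastrocnemius) for the 36 receptor genes grouped by class. Cortex circles lie further right for H3K4me3 and H3K27ac at most genes, while for H3K27ac Grin3b lies at 51.5 kb in muscle and for H3K27me3 Grik4 at 37.6 kb in muscle and 0 in the cortex.

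Genes that make, move and break down the transmitters also had more of the active marks in the cortex. Of 18 such genes H3K4me3 was called higher at the promoter in the cortex for 15 and in muscle for 0, H3K27ac for 14 and 0, and H3K27me3 for 0 and 5, beside the shares of all genes called that are given above. Slc17a7, the vesicular glutamate transporter of cortical neurons, had 20.1 RPM of H3K4me3 in the cortex and 6.41 RPM in muscle by the means, and Gad1, which makes GABA, 16.1 RPM and no peak. Glul, the glutamine synthetase of astrocytes and many other tissues, had 49.6 and 55.6 RPM and was not called (edgeR FDR = 0.3). H3K27me3 lay at Gad1, Gad2, Slc32a1 and Slc17a7 in every library of both tissues and was called at none of these.

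Of 26 genes for auxiliary and anchoring proteins of the receptors, H3K4me3 at the promoter was called higher in the cortex for 20 and in muscle for 0. Of all genes 37.7% and 10.9% were. H3K27ac was called for 23 and 0, where 35.1% and 9.63% of all genes were. H3K27me3 at the promoter was called for 1 (Homer3, on a peak in 1 cortex library) and 9, where 8.41% and 11.2% of all genes were, and in the body for 2 and 21, where 13.3% and 14.8% were. Cacng2, the AMPA receptor partner stargazin, had 32.4 RPM of H3K4me3 in the cortex and no muscle peak, as did Cacng3. Gphn, the gephyrin that anchors GABA-A receptors, had 86 and 71.5 RPM (edgeR FDR = 0.13), and the scaffold genes Dlg4, Homer1 and Homer3 were not called for H3K4me3 or H3K27ac at the promoter. In the body H3K27ac was called higher in the cortex for Dlg4 and in muscle for Homer1 and Homer3 (edgeR FDR = 1.02e-05, 4.35e-06 and 0.012). An H3K4me3 promoter peak in every muscle library was found at 18 of these 26 genes (69.2%), at 10 of the 18 transmitter genes (55.6%) at 9 of the 36 receptor genes (25%) and at 56.9% of all genes. The difference between the lists was not tested.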

How the data were processed

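Per the study's methods, mapping to mm10 was done by the authors with BWA, who dropped duplicates and poorly mapped reads with SAMtools, and called peaks in each library alone with epic2 (version not given in the sources used here). The deposited peak lists hold, for each peak, a whole-number count of reads (unit counts, not normalized) and an epic2 score that the authors' caller gave. No input column was used. The score served only to leave out the lowest 25% of peaks in an alternative.

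Counts were shared out by overlap, from 1 bp on, to windows of 1 kb each side of the start and to gene bodies of at least 1 kb, for 24963 and 20839 autosomal genes. The start was that of a curated RefSeq transcript. Libraries held 2.99 to 27 M reads in autosomal peaks, which set the library size. Tissues were compared with edgeR 4.0.16 (quasi-likelihood, limma 3.58.1, R 4.3.3), Benjamini-Hochberg over all genes, FDR under 0.1. The test was checked on counts simulated from its own model, where it recovered far fewer of the changed genes for H3K27me3 than for the other marks. Such counts do not imitate genes without a peak in a whole tissue, so the check says nothing about calls at those genes. TMM factors and DESeq2 1.42.0 were among 18 alternatives. Tables and figures used Python 3.11.15, NumPy 2.4.6, pandas 2.3.3 and matplotlib 3.10.9.

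Groups are mark and tissue, from the labels. The animal code in the deposited file names ties both tissues to the same mouse for 9 mice, so a fit with the animal as a block was run. Deviations from the tissue mean correlated between −0.0778 and 0.0679 within an animal. Within a tissue, each library of a mark came from another mouse. Title numbers marked the same animal for 4 of 9.

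The members and the lists of other genes were chosen with earlier results of these data known. Members given with lowest, median and highest value were, in each class, those with the highest and the lowest cortex H3K4me3, the 3 with the largest and the 3 with the smallest difference for each mark and region, and those called against the direction of most members. Others are named to describe their class. A fold is given only where every library of both tissues had a peak.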

Additional observations from a re-analysis of the deposited data

Results flagged for a closer look

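A single library lay apart from the rest of its tissue in 6 of 112 groups of promoter values of the receptor genes (5.36%), where chance gives about 1 in 20. H3K27me3 at Grin3b was 13.1 RPM in gastrocnemius replicate 4, and the next library had 9.16 RPM. H3K27me3 at Grik3 was 5.03 RPM in cortex replicate 3, below the next at 8.29 RPM. Cortex replicate 9 was high in H3K27ac at Grik3, with 10.3 RPM against 8.78 RPM, and at Gabrr2, with 7.26 RPM against 5.22 RPM. This library had the fewest H3K27ac reads in peaks, 3.90 M, and the part of depth was not tested. H3K27ac at Grik4 was 2.44 RPM in gastrocnemius replicate 6, below the next at 3.66 RPM, and at Gabbr1 it was 14.2 RPM in cortex replicate 6, above the next at 12 RPM.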

How the results depend on the processing

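Of 3223 values for single members under 18 alternatives, 2916 kept their side of the threshold, 228 lost and 72 gained a call, and 7 values changed sign with a call in at least 1 of the 2 fits. Uncalled values changed sign in 26 cases. Of 190 counts of members called, 148 stayed within 1.5 times the count reported. With genes called in every library alone, fewer members were left to test, 9 for H3K4me3 promoters and 8 for H3K4me3 bodies. For H3K27ac 7 and 7 were left, and for H3K27me3 12 and 13. Members higher in the cortex went from 30 to 9 for H3K4me3 promoters and from 31 to 7 for H3K4me3 bodies. For H3K27ac they went from 31 to 5 at promoters and from 32 to 6 in bodies. Members higher in the gastrocnemius went from 14 to 3 for H3K27me3 promoters and from 26 to 8 for H3K27me3 bodies. For H3K4me3 bodies they went from 1 to 0. No member that was left in lost its call. Fisher's exact test on calls alone gave 15 H3K4me3 promoters in the cortex, 0 H3K27ac promoters in the gastrocnemius, and 0 and 9 H3K27me3 promoters.

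With bases without a peak at the lowest density, 17 H3K4me3 bodies were higher in the cortex, and H3K27me3 bodies gave 0 and 9. The log2 difference of H3K4me3 bodies then turned to −0.02 for Grik1, −0.03 for Gabrg3, −0.07 for Gabrr1 and −0.07 for Gabrr2, and that of the H3K27me3 body of Gabrr2 to −0.22. Without the lowest 25% of scores Grin3b H3K4me3 turned to −7.14 and made 1 promoter higher in the gastrocnemius, H3K27ac bodies there numbered 2, and H3K27me3 in the cortex gave 0 promoters and 1 body. With equally many peaks the gastrocnemius had 0 H3K4me3 bodies, 1 H3K27ac promoter and 2 H3K27ac bodies, and the cortex 2 H3K27me3 promoters. Members with higher H3K27me3 promoters in the cortex numbered 3 with TMM factors, 4 with DESeq2, 2 at a mean of at least 10 reads and 2 in a window of 2.5 kb. Over the whole gene 0 members had higher H3K4me3 in the gastrocnemius. Except where built into the alternative, the cause was not tested.

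With the animal as a block the H3K27ac promoters higher in the gastrocnemius numbered 1, the H3K27me3 promoters higher in the cortex 0 and the bodies 1. The block by title number gave 1, 0 and 1, and 17 H3K27me3 bodies higher in the gastrocnemius. The animal block also ended the call of the H3K27ac body of Grm6 (edgeR FDR = 0.28). It changed no member's call beyond those given here and in the results.

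Libraries with a run number in their deposited names were tested alone after the data were seen (2 cortex, 4 gastrocnemius). Gabrr2 H3K27ac was then 0.03, and 0 members were called for H3K4me3 bodies and H3K27ac promoters in the gastrocnemius and for H3K27me3 promoters and bodies in the cortex. Libraries without the code gave 0 and 1 for H3K27me3 in the cortex. The code as a covariate gave 1 body there, and leaving out the shallowest libraries gave 2 bodies. Leaving out gastrocnemius replicate 5, also chosen after the data were seen, gave 1 and 14 H3K27me3 promoters and 3 and 26 bodies. A peak that was not called counts as 0. The biological coefficient of variation at promoters was 148% for H3K27me3 and 19.6% for H3K4me3, and the part of depth in it was not tested.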
